A study of Mus musculus with 10 samples.

Results

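34 genes of the interferon response and of antigen presentation were followed in mouse embryonic stem cells (ESCs) after depletion of Wapal or Smc3. The genes were picked by name, with earlier results of these data known. They are components of the class I antigen pathway, transcription factors and regulators of the interferon response, RNA sensors, GTPases, the chemokine Cxcl10 and antiviral effectors. Their shares are set beside those of all genes as a description, not as an independent test. Each gene was read from the probe set that carries its symbol alone in the platform annotation and that has the highest mean log2 intensity over all arrays. On this rule 33 of the 34 were measured, among 18193 genes measured in all. Isg15 was left out because its probe set also carries the symbol Gm9706.

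The cells were of 1 line, CJ9, which derives from 129svj. There were 5 groups of 2 arrays each, 10 arrays in all: Wapal shRNA1, Wapal shRNA2, Smc3 shRNA1, Smc3 shRNA2 and Empty Vector, the parental vector pLKO.1 that holds no shRNA. All 5 groups, empty vector included, received lentivirus for 48 h with polybrene at 10 µg/mL, then puromycin at 4 µg/mL in ESC medium containing LIF, and RNA was taken after 48 h of culture following infection. Wapal (gene symbol Wapl) releases cohesin from chromatin and Smc3 is a core subunit of the cohesin ring, so the design compares loss of the release factor and loss of the ring with empty vector and with each other.

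Interferons are secreted proteins that bind receptors on the cell surface and, through Janus kinases, activate STAT and IRF transcription factors. These bind short elements near their target genes, the interferon-stimulated response element (ISRE) and the gamma-activated site (GAS), and switch on antiviral effectors together with the machinery that cuts proteins into peptides, carries the peptides into the endoplasmic reticulum and loads them onto class I molecules. Pluripotent cells are known for a weak interferon response and for little class I antigen on their surface.

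Values are intensities that the authors made with RMA, and differences are in log2 with their standard error (SE) from limma. A gene is said to have risen or fallen where its two-sided p, adjusted over all 45037 probe sets tested by Benjamini-Hochberg, was under 0.05. The methods call the replicates biological, but no label says that each was infected or grown apart, and the p-values cover only the spread between these samples, some of which may be technical. Precision is limited by there being 2 arrays in a group. The same 2 empty vector arrays enter each comparison with empty vector. At deposit the empty vector and Wapal samples were numbered together, and the Smc3 samples later and apart, with no empty vector among them. Comparisons of Smc3 depletion with empty vector or with Wapal depletion therefore also cross these deposit sets. Those of Wapal depletion with empty vector, and between shRNAs of a target, do not. The part of the deposit sets in the results was not tested. The targets were lower with their own shRNAs: Wapl had intensities of 929 and 1005 with Wapal shRNA1, 235 and 217 with Wapal shRNA2, 2536 and 2511 with Smc3 shRNA1, 2985 and 3104 with Smc3 shRNA2, against 2500.1 and 2648 with empty vector. Smc3 had 1434 and 1459.7 with Wapal shRNA1, 1517 and 1487 with Wapal shRNA2, 187 and 176 with Smc3 shRNA1, 223 and 189 with Smc3 shRNA2, against 1536 and 1555 with empty vector. Wapl was 5.51-fold lower with Wapal depletion (adjusted p = 0.000123) and Smc3 8.01-fold lower with Smc3 depletion (adjusted p = 3.26e-05). Wapl was left at a higher level by Wapal shRNA1 than by Wapal shRNA2, with no overlap, and Smc3 differed by -0.18 (adjusted p = 0.412) between the Smc3 shRNAs. All 8 ESC markers were bright (mean log2 of 9.12 to 14.38). Of the markers of other cells, 9 of 10 for fibroblasts, 7 of 10 for leukocytes and macrophages (Ptprc among them) and 3 of 5 for endothelium had a mean log2 under 6, a range in which signal cannot be told well from background and which held 46.7% of all genes. The brighter leukocyte and macrophage markers were Laptm5 (mean log2 of 8.91), Cd68 (7.94) and Csf1r (6.07). Those for endothelium were Tek (7.19) and Pecam1 (6.61), and that for fibroblasts was Thy1 (6.96). The brightest probe sets of 16 of the 33 measured genes (48.5%) were also under 6, and those of 10 were at 8 or above. In bulk RNA, fewer cells that express a gene and less of its RNA per cell cannot be told apart.

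Promoter windows from RefSeq (build GRCm38.p6, 250 bases before to 50 after the start) were at hand for 28 of the 34 genes, in 32 windows. The core of the ISRE was searched as GAAA, any 2 bases and GAAA again, and the GAS as TTCNNNGAA, on both strands. 15 of the 32 windows (46.9%) held the ISRE core, against 3.44% of all 32851 windows in the table, and 8 (25%) held the GAS, against 8.3%. The genes were picked as interferon response genes, so these shares describe the choice. Of 13 windows of genes that rose with Smc3 depletion, 5 (38.5%) held the ISRE core and 5 (38.5%) the GAS. 6 windows are printed here, 5 of genes among those that rose most with Smc3 depletion and that of Oas1a, which fell. Each printed window holds a match. That of Tap1, which rose more than Irf1 and Igtp, held neither motif and is not printed. Matches are in capitals, 5′ to 3′ on the strand of the gene.

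Irgm1, chr11:48871371-48871670, minus strand: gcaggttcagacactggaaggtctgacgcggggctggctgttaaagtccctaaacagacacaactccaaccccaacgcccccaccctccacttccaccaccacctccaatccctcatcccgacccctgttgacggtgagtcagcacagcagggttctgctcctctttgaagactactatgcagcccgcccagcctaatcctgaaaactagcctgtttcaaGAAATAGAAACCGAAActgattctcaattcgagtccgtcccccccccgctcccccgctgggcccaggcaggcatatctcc

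Bst2, chr8:71537423-71537722, minus strand: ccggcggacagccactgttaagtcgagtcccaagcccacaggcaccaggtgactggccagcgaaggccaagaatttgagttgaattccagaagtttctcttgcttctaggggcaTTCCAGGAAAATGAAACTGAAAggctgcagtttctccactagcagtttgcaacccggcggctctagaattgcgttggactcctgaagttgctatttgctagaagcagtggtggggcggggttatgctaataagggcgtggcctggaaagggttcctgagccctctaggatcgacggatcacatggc

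Irf1, chr11:53769764-53770063, plus strand: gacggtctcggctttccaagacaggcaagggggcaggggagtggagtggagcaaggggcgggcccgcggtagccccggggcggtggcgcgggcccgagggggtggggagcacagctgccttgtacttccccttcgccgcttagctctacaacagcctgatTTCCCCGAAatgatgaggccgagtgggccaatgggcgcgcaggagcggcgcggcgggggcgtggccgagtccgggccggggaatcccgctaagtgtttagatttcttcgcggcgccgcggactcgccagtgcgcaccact

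Psmb8, chr17:34197945-34198244, plus strand: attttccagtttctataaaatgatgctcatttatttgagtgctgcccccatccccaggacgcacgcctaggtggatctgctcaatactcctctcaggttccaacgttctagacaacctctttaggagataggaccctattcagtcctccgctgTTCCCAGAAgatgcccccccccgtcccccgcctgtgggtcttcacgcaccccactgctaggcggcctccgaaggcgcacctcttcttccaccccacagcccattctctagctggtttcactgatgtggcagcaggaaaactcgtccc

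Igtp, chr11:58199306-58199605, plus strand: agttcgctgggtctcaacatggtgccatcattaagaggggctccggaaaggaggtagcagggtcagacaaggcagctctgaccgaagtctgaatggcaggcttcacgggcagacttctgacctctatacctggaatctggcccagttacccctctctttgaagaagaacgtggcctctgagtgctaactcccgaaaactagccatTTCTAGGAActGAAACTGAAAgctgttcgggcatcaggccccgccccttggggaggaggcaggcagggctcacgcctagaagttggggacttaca

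Oas1a, chr5:120907476-120907775, minus strand: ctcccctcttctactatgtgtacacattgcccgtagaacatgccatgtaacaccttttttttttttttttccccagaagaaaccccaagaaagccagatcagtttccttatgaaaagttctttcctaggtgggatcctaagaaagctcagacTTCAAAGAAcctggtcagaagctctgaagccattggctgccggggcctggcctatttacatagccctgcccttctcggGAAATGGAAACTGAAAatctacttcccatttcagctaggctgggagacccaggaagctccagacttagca

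Irgm1 had a pair of overlapping ISRE cores that began 30 and 24 bases before the start, and no GAS. Bst2 had a pair that began 130 and 124 bases before it, with a GAS that ran into the first of them, and Oas1a had a pair close to the start with a GAS further upstream. Igtp had 1 of each. The Psmb8 window and the Irf1 window printed here held a GAS and no ISRE core. A second Irf1 window, chr11:53770223-53770522, held neither. A match describes the letters only. Tap1 and Psmb9 share a promoter region: their starts lie 226 bases apart, their windows have 275 bases in common, and neither motif was found in either.

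Smc3 depletion, taken as the mean of both shRNA groups minus empty vector, raised 13 of the 33 measured genes and lowered 2. This was 39.4% and 6.06% of them, where over all genes 6.08% rose and 3.94% fell. The genes were chosen with earlier results of these data known, so this contrast is not independent of the choice. The median difference was 0.29 over the 33 genes and 0.01 over all genes. Those that rose were Irgm1, Bst2, Psmb8, Tap1, Irf1, Igtp, Tap2, Ifi35, Psmb9, B2m, Cxcl10, Oasl2 and H2-D1, and those that fell were Oas1a and Ifitm1. A plain two-group test, in which both Smc3 shRNAs formed a single group, called 6 higher and 1 lower unadjusted and 0 after Benjamini-Hochberg. Of the genes just named, only Irgm1, Bst2, B2m, H2-D1 and Oas1a passed it unadjusted, so the 6 include genes that did not pass in limma. Over all 45037 probe sets, in either direction, the two-group test called 5485 unadjusted and 0 after Benjamini-Hochberg, so the 0 is not particular to these genes. Of the 17 genes with a mean log2 of 6 or above, 9 rose and 2 fell, where 8.08% and 6.11% of all such genes did. Of the 16 dimmer ones 4 rose, where 3.81% of all dimmer genes did. Of the 8 markers of ESC identity, 3 (37.5%) fell in the same comparison: Nanog (log2 difference of -0.71), Esrrb (-0.77) and Zfp42 (-0.44). The other 5 did not pass. The part of these markers in the result was not tested.

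**Figure D1:**
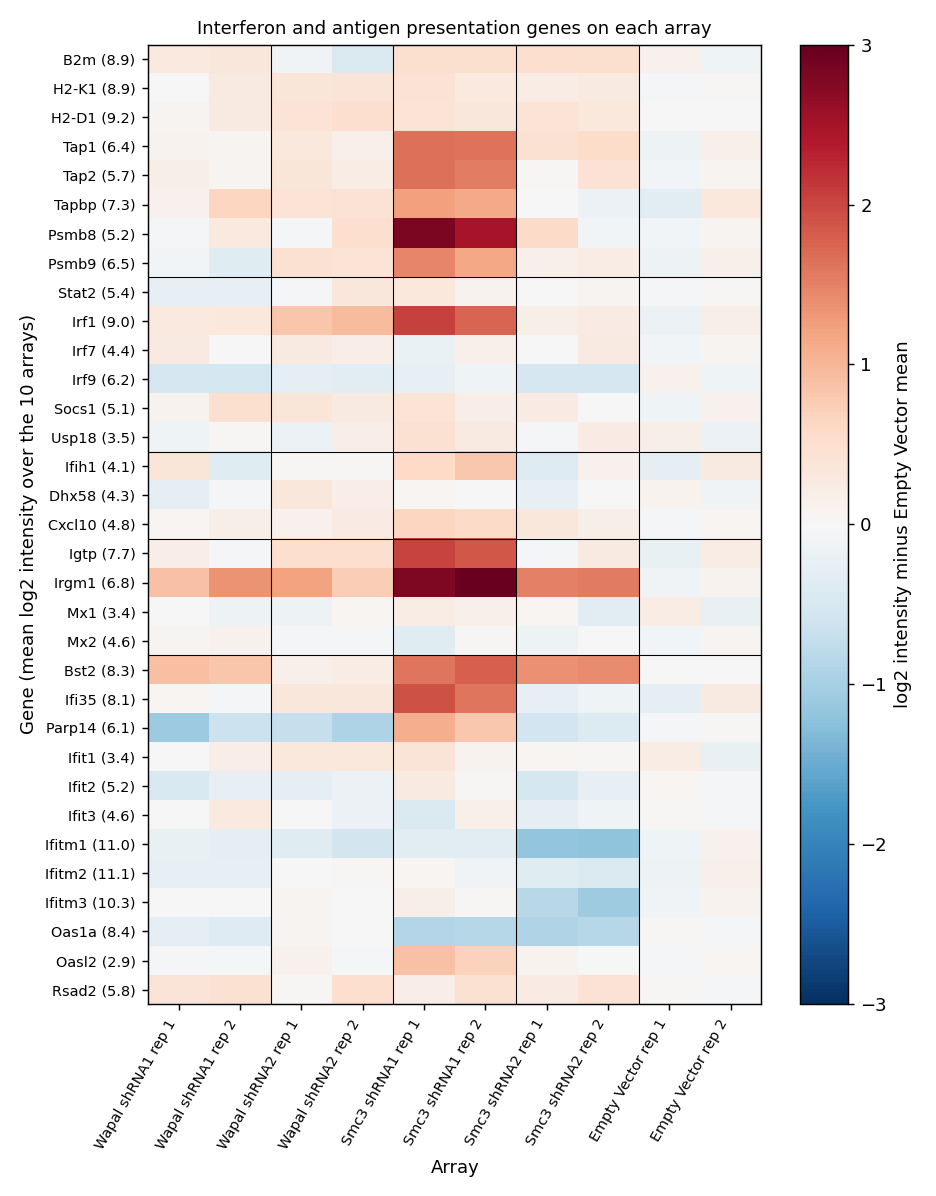
Log2 intensity of the 33 measured genes (rows, with the mean log2 intensity over the 10 arrays in brackets) on each of the 10 arrays (columns), minus the mean of the 2 empty vector arrays; lines separate groups of arrays and groups of genes by role. The strongest reds lie in the 2 columns of Smc3 shRNA1 (Psmb8, Irgm1, Irf1, Igtp, Ifi35, Tap1 and Tap2), Irgm1 is red in all 8 depleted columns, and Oas1a is blue in all 4 Smc3 columns.

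Of the 8 antigen presentation genes, 6 rose. Psmb8 and Psmb9 encode inducible catalytic subunits of the immunoproteasome, which cuts proteins into peptides for class I molecules. Psmb8 had intensities of 23.3 and 29.9 with Wapal shRNA1, 23.7 and 34.4 with Wapal shRNA2, 170.3 and 135 with Smc3 shRNA1, 36.1 and 22.7 with Smc3 shRNA2, against 22.8 and 25.7 with empty vector. Psmb9 had 67.96 and 55.9 with Wapal shRNA1, 100.1 and 96.6 with Wapal shRNA2, 201 and 163 with Smc3 shRNA1, 80.7 and 84.2 with Smc3 shRNA2, against 65.4 and 80.05 with empty vector. With Smc3 shRNA1 both genes lay far above the empty vector arrays on both arrays, whereas with Smc3 shRNA2 the Psmb8 values fell on either side of the empty vector values and the Psmb9 values lay just above them. The Smc3 depletion differences were 1.44 ± 0.18 (SE, adjusted p = 0.00327) for Psmb8 and 0.75 ± 0.12 (SE, adjusted p = 0.00935) for Psmb9. Without empty vector replicate 1 the adjusted p of Psmb9 was 0.0531.

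Tap1 and Tap2 form the transporter that moves peptides into the endoplasmic reticulum, and Tapbp (tapasin) holds class I molecules to it. Tap1 had 64.4 and 63.4 with Wapal shRNA1, 74.5 and 66.2 with Wapal shRNA2, 187 and 186 with Smc3 shRNA1, 81.7 and 87.7 with Smc3 shRNA2, against 53.98 and 65.9 with empty vector. Tap2 had 44.2 and 41.5 with Wapal shRNA1, 50.6 and 45.8 with Wapal shRNA2, 122 and 113 with Smc3 shRNA1, 40.1 and 52.5 with Smc3 shRNA2, against 37.1 and 41.1 with empty vector. Tapbp had 135 and 194 with Wapal shRNA1, 164 and 167 with Wapal shRNA2, 290.4 and 272 with Smc3 shRNA1, 125 and 111 with Smc3 shRNA2, against 99.3 and 155 with empty vector. For Tap1 all 4 Smc3 arrays lay above both empty vector arrays. For Tap2 and Tapbp this held for both Smc3 shRNA1 arrays, and the Smc3 shRNA2 values overlapped the range of the empty vector values. Tap1 rose by 1.07 ± 0.11 (SE, adjusted p = 0.00124) and Tap2 by 0.91 ± 0.12 (SE, adjusted p = 0.00443). For Tapbp the difference was 0.55 ± 0.17 (SE, adjusted p = 0.0902), and its 2 empty vector arrays were themselves 0.65 apart in log2. Psmb9, Tap1, Psmb8 and Tap2 are neighbours on chromosome 17 in the RefSeq gene table, with 0 protein-coding genes between them.

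Of the 3 genes measured for the class I molecule itself, 2 rose. B2m, the light chain shared by all class I molecules, had 519 and 535 with Wapal shRNA1, 393 and 310.3 with Wapal shRNA2, 589 and 590.2 with Smc3 shRNA1, 593 and 586 with Smc3 shRNA2, against 463 and 383 with empty vector. H2-D1, a classical heavy chain, had 523 and 593 with Wapal shRNA1, 662 and 701 with Wapal shRNA2, 662 and 631 with Smc3 shRNA1, 664 and 618 with Smc3 shRNA2, against 489.8 and 502 with empty vector. H2-K1, the other classical heavy chain measured, had 396 and 477 with Wapal shRNA1, 509 and 519.9 with Wapal shRNA2, 536 and 485 with Smc3 shRNA1, 465 and 481 with Smc3 shRNA2, against 385 and 409 with empty vector. All 4 Smc3 arrays lay above both empty vector arrays for each of these genes, and for B2m the 4 values were nearly the same. The Smc3 depletion difference was 0.49 ± 0.10 (SE, adjusted p = 0.0264) for B2m, 0.38 ± 0.09 (SE, adjusted p = 0.0401) for H2-D1 and 0.31 ± 0.09 (SE, adjusted p = 0.0896) for H2-K1, so that B2m and H2-D1 rose and H2-K1 did not pass. The calls of B2m and H2-D1 rested on all 6 arrays: with 1 array left out the adjusted p of H2-D1 was 0.0748 to 0.15 for each array, and that of B2m was 0.0799 to 0.0953 for every array except empty vector replicate 1.

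Other probe sets of these genes did not all give the same call. Tap1 was read by 3 more, with mean log2 intensities of 2.67 to 4.81 against 6.40 for the brightest, 1416016_at, and none of these passed with Smc3 depletion: 1420274_at was at -0.12 (adjusted p = 0.631), 1448177_at at -0.08 (adjusted p = 0.829) and 1449803_x_at at 0.12 (adjusted p = 0.568). The second probe set of Psmb8, 1444619_x_at, with a mean log2 of 2.94 against 5.25, was at -0.02 (adjusted p = 0.936). The calls of Tap1 and Psmb8 therefore rest on 1 probe set each, while for Ifi35 both other probe sets rose, 1424617_at by 0.73 (adjusted p = 0.02) and 1459151_x_at by 0.53 (adjusted p = 0.0391). H2-K1 was also read by 1425336_x_at, with an Smc3 depletion difference of 0.94 (adjusted p = 0.00298), and by 1427746_x_at, with 0.65 (adjusted p = 0.0118). These 2 probe sets passed where the brighter one, 1451931_x_at, did not, and 1450534_x_at was at 0.09 (adjusted p = 0.729). Of the 8 other probe sets of H2-D1, 1451784_x_at passed, with 0.42 (adjusted p = 0.0253), and the rest did not, among which 1452544_x_at gave 0.19 (adjusted p = 0.508). Probe sets with this suffix can pick up related transcripts, and class I heavy chains are a family of near-identical genes, so the values of H2-K1 and H2-D1 are uncertain as to the gene. The second probe set of B2m, 1449289_a_at, rose with 0.52 (adjusted p = 0.0158).

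**Figure D2:**
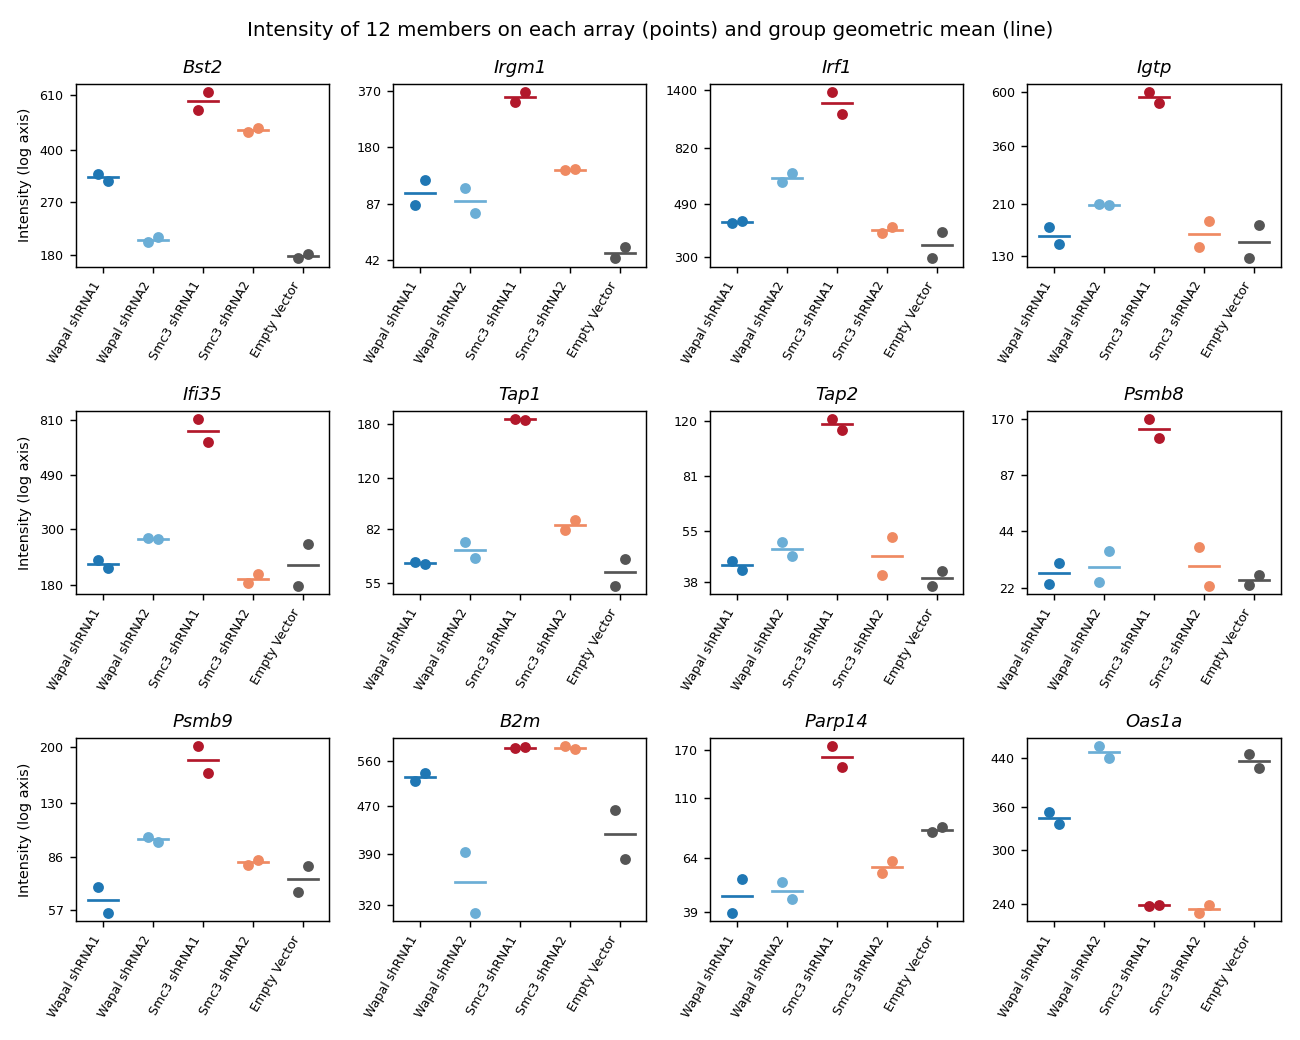
Intensity (log axis, a separate scale for each gene) of 12 of the genes on each array, as points, and the geometric mean over a group as a line, for Wapal shRNA1, Wapal shRNA2, Smc3 shRNA1, Smc3 shRNA2 and empty vector. Smc3 shRNA1 stands above the other groups for Irgm1, Irf1, Igtp, Ifi35, Tap1, Tap2, Psmb8, Psmb9 and Parp14, B2m is the same with both Smc3 shRNAs, and Oas1a is lowest with both.

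Among the regulators, Irf1 stood apart. Irf1 is a transcription factor induced by interferon that acts on class I and immunoproteasome genes. It had 410.4 and 419 with Wapal shRNA1, 599 and 652 with Wapal shRNA2, 1379.7 and 1128 with Smc3 shRNA1, 376 and 395 with Smc3 shRNA2, against 297 and 379 with empty vector. Every depleted array except Smc3 shRNA2 replicate 1 lay above both empty vector arrays, and Smc3 shRNA1 was far above all others. Irf1 rose by 1.05 ± 0.13 (SE, adjusted p = 0.00297) with Smc3 depletion. The other transcription factors did not pass: Stat2 and Irf9, partners in the complex that binds the ISRE, had Smc3 depletion differences of 0.13 (adjusted p = 0.509) and -0.35 (adjusted p = 0.0848), and Irf7, an amplifier of type I interferon genes, had 0.06 (adjusted p = 0.854). Irf9 was lower than in empty vector with Smc3 shRNA2, by a difference of -0.50 ± 0.12 (SE, adjusted p = 0.0396). The negative regulators Socs1, an inhibitor of Janus kinases, and Usp18, which removes Isg15 from proteins and blocks the type I receptor, had 0.22 (adjusted p = 0.384) and 0.24 (adjusted p = 0.363).

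Of the 4 GTPases, 2 rose with Smc3 depletion and 2 did not pass. Irgm1 and Igtp (Irgm3) are immunity-related GTPases that act on the membranes of vacuoles holding intracellular pathogens. Irgm1 had 85.1 and 118 with Wapal shRNA1, 106 and 77.1 with Wapal shRNA2, 321 and 365 with Smc3 shRNA1, 133 and 136 with Smc3 shRNA2, against 43.1 and 49.95 with empty vector. Igtp had 169 and 145 with Wapal shRNA1, 209.6 and 209 with Wapal shRNA2, 599 and 541 with Smc3 shRNA1, 141 and 179 with Smc3 shRNA2, against 127 and 173 with empty vector. For Irgm1 all 8 depleted arrays lay above both empty vector arrays without overlap, and Smc3 shRNA1 was highest. For Igtp this separation was seen with Smc3 shRNA1 and Wapal shRNA2, and Smc3 shRNA2 overlapped empty vector. Irgm1 rose by 2.21 ± 0.10 (SE, adjusted p = 6.77e-05) with Smc3 depletion, a 4.63-fold difference that ranked 8 from the top among the 18193 genes. Igtp rose by 1.02 ± 0.15 (SE, adjusted p = 0.00581). The dynamin-like GTPases Mx1 and Mx2, both dim, had 0.03 (adjusted p = 0.952) and -0.12 (adjusted p = 0.682).

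Bst2 rose with each of the Smc3 shRNAs. Bst2 (tetherin) holds budding virus particles at the cell surface. It had 334 and 315 with Wapal shRNA1, 199 and 206 with Wapal shRNA2, 543 and 622 with Smc3 shRNA1, 459 and 474 with Smc3 shRNA2, against 175 and 181 with empty vector. All 8 depleted arrays were above both empty vector arrays, the Smc3 arrays more so than the Wapal arrays. The Smc3 depletion difference was 1.55 ± 0.10 (SE, adjusted p = 0.000155), a 2.92-fold difference that ranked 27 from the top. Ifi35, an interferon-induced leucine zipper protein, had 227 and 209.7 with Wapal shRNA1, 276 and 274 with Wapal shRNA2, 818 and 662 with Smc3 shRNA1, 183 and 199 with Smc3 shRNA2, against 179 and 263 with empty vector. Both Smc3 shRNA1 arrays lay above all others, its empty vector arrays lay 0.55 apart in log2, and its Smc3 depletion difference was 0.79 ± 0.16 (SE, adjusted p = 0.0221). The call of Ifi35 held without empty vector replicate 2 or Smc3 shRNA1 replicate 2, while without any other single array the adjusted p was 0.0679 to 0.0993.

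The remaining 2 that rose were small changes of dim probe sets. Cxcl10, a chemokine that attracts T cells, had 25.1 and 27.1 with Wapal shRNA1, 26.2 and 28.2 with Wapal shRNA2, 37.5 and 35.7 with Smc3 shRNA1, 30.4 and 26.95 with Smc3 shRNA2, against 23.02 and 24.9 with empty vector. Oasl2, a member of the 2′-5′ oligoadenylate synthetase family, had 6.27 and 6.30 with Wapal shRNA1, 7.06 and 6.26 with Wapal shRNA2, 11.7 and 10.3 with Smc3 shRNA1, 6.95 and 6.34 with Smc3 shRNA2, against 6.17 and 6.68 with empty vector. All 4 Smc3 arrays exceeded empty vector for Cxcl10. For Oasl2 both Smc3 shRNA1 arrays and 1 Smc3 shRNA2 array did. The Smc3 depletion difference was 0.43 ± 0.10 (SE, adjusted p = 0.0326) for Cxcl10 and 0.41 ± 0.10 (SE, adjusted p = 0.0435) for Oasl2. Oasl2 lost its call without any 1 of the 6 arrays (adjusted p = 0.0557 to 0.19), and Cxcl10 kept its call only without empty vector replicate 2 (0.0636 to 0.154 without any other array).

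Oas1a and the Ifitm genes went the other way. Oas1a makes the second messenger that activates an RNA-degrading enzyme when double-stranded RNA is present. It had 353 and 335 with Wapal shRNA1, 463 and 439.9 with Wapal shRNA2, 238 and 239 with Smc3 shRNA1, 231 and 239 with Smc3 shRNA2, against 448 and 422 with empty vector. The 4 Smc3 arrays were alike and far under both empty vector arrays, with a difference of -0.88 ± 0.09 (SE, adjusted p = 0.00125). Ifitm1, Ifitm2 and Ifitm3 encode membrane proteins that restrict virus entry, and they are neighbours on chromosome 7 with 0 protein-coding genes between them. Ifitm1 had 2392 and 2331 with Wapal shRNA1, 2184 and 1894 with Wapal shRNA2, 2224 and 2187 with Smc3 shRNA1, 1237 and 1204 with Smc3 shRNA2, against 2545 and 3055 with empty vector. Ifitm3 had 1439.8 and 1459.8 with Wapal shRNA1, 1531 and 1461 with Wapal shRNA2, 1632 and 1478 with Smc3 shRNA1, 806 and 693 with Smc3 shRNA2, against 1340.0 and 1556 with empty vector. Ifitm2 had 2034 and 2038 with Wapal shRNA1, 2437 and 2487 with Wapal shRNA2, 2529 and 2256 with Smc3 shRNA1, 1882 and 1781 with Smc3 shRNA2, against 2185 and 2673 with empty vector. Smc3 shRNA2 gave the lowest values for all 3. With Smc3 shRNA1, Ifitm1 was still under both empty vector arrays, while Ifitm2 and Ifitm3 overlapped them. The Smc3 depletion difference was -0.77 ± 0.10 (SE, adjusted p = 0.00402) for Ifitm1, -0.42 ± 0.11 (SE, adjusted p = 0.0572) for Ifitm3 and -0.21 ± 0.11 (SE, adjusted p = 0.339) for Ifitm2, of which only Ifitm1 passed.

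The other effectors and sensors did not pass with Smc3 depletion. Ifit1, Ifit2 and Ifit3, which bind viral RNA and block its translation, had differences of 0.15 (adjusted p = 0.607), -0.12 (adjusted p = 0.65) and -0.17 (adjusted p = 0.598). Rsad2 (viperin), which makes a chain-terminating nucleotide, had 0.33 (adjusted p = 0.114). The RNA sensor Ifih1 (MDA5) had 0.29 (adjusted p = 0.42) and its regulator Dhx58 (LGP2) -0.05 (adjusted p = 0.868). Parp14, an ADP-ribosyltransferase, had 0.23 (adjusted p = 0.268), and its values with the 2 shRNAs lay on opposite sides of empty vector.

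Set against each other, Smc3 shRNA1 was higher than Smc3 shRNA2 for 15 of the 33 genes and lower for 0, where over all genes 7.87% were higher and 4.63% lower. In limma 0 were also lower at an unadjusted p under 0.05, and none of the alternative fits gave a lower gene. The difference was positive for 30 of the 33, with a median of 0.35 over the 33 and -0.0027 over all genes. Among the 17 genes with a mean log2 of 6 or above 10 were higher, where 11.2% of all such genes were, and among the 16 dimmer ones 5, where 4.09% of all dimmer genes were. The same empty vector arrays entered both shRNA comparisons: against them Smc3 shRNA1 raised 14 genes and lowered 1, and Smc3 shRNA2 raised 4 and lowered 4. The background was 7.42% of all genes higher and 4.14% lower with Smc3 shRNA1, and 4.95% higher and 4.57% lower with Smc3 shRNA2.

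The differences between the shRNAs were largest for Psmb8 at 2.40 ± 0.21 (SE, adjusted p = 0.00107), Ifi35 at 1.95 ± 0.18 (SE, adjusted p = 0.00131), Igtp at 1.84 ± 0.17 (SE, adjusted p = 0.0013) and Irf1 at 1.69 ± 0.15 (SE, adjusted p = 0.00109). They covered most of the peptide pathway, with 1.35 (adjusted p = 0.00188) for Tap2, 1.14 (adjusted p = 0.00203) for Tap1, 1.14 (adjusted p = 0.00322) for Psmb9 and 1.26 (adjusted p = 0.00646) for Tapbp. Irgm1 differed by 1.35 (adjusted p = 0.0011) while being higher than empty vector with each shRNA, by 2.88 (adjusted p = 4.43e-05) with shRNA1 and 1.54 (adjusted p = 0.000568) with shRNA2. Tap1 was likewise higher with each, by 1.64 (adjusted p = 0.000369) with shRNA1 and 0.50 (adjusted p = 0.0447) with shRNA2. For Psmb8, Igtp and Irf1 the shRNA1 differences from empty vector were 2.65 (adjusted p = 0.000451), 1.94 (adjusted p = 0.000637) and 1.89 (adjusted p = 0.000447), and the shRNA2 differences were 0.24 (adjusted p = 0.579), 0.10 (adjusted p = 0.796) and 0.20 (adjusted p = 0.506). Ifi35 was at 1.76 (adjusted p = 0.0013) with shRNA1 and at -0.19 (adjusted p = 0.629) with shRNA2.

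Parp14 was above empty vector with Smc3 shRNA1, by 0.95 (adjusted p = 0.00351), and at -0.49 (adjusted p = 0.0544) with shRNA2, a difference between the shRNAs of 1.44 ± 0.13 (SE, adjusted p = 0.00107). Its intensities were 38.9 and 52.7 with Wapal shRNA1, 51.4 and 43.9 with Wapal shRNA2, 176 and 146 with Smc3 shRNA1, 56.03 and 62.3 with Smc3 shRNA2, against 80.7 and 84.9 with empty vector. Both Smc3 shRNA1 arrays were above and all other depleted arrays below the empty vector arrays. Ifitm3, by 1.06 (adjusted p = 0.00287), and Ifitm1, by 0.85 (adjusted p = 0.00455), were also higher with shRNA1 than with shRNA2. Their shRNA2 values were low: against empty vector, shRNA2 lowered Ifitm1 by a difference of -1.19 (adjusted p = 0.00139) and Ifitm3 by -0.95 (adjusted p = 0.00465).

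Ifih1 had 20.02 and 12.001 with Wapal shRNA1, 15.9 and 15.8 with Wapal shRNA2, 23.5 and 27.2 with Smc3 shRNA1, 11.8 and 16.9 with Smc3 shRNA2, against 12.9 and 18.6 with empty vector. Ifit2 had 29.1 and 33.99 with Wapal shRNA1, 33.3 and 35.5 with Wapal shRNA2, 48.4 and 41.2 with Smc3 shRNA1, 27.6 and 33.8 with Smc3 shRNA2, against 41.95 and 38.2 with empty vector. Both were dim genes whose Smc3 shRNA1 values were above the shRNA2 values, and for Ifit2 the shRNA2 values were also below those of empty vector. The differences between the shRNAs were 0.84 (adjusted p = 0.0415) for Ifih1, 0.73 (adjusted p = 0.00751) for Oasl2 and 0.55 (adjusted p = 0.0423) for Ifit2. The calls of Ifih1 and Ifit2 were lost without any 1 of the 4 Smc3 arrays (adjusted p = 0.062 to 0.249 for Ifih1 and 0.074 to 0.257 for Ifit2). Tapbp lost its call without Smc3 shRNA1 replicate 1 or either shRNA2 replicate (adjusted p = 0.0552 to 0.0667), and Oasl2 likewise without the same arrays (0.0526 to 0.0745).

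Bst2, B2m, H2-D1 and Oas1a did not pass between the Smc3 shRNAs. Their differences were 0.32 ± 0.11 (SE, adjusted p = 0.117), 0.00 ± 0.12 (SE, adjusted p = 0.997), 0.01 ± 0.10 (SE, adjusted p = 0.963) and 0.02 ± 0.10 (SE, adjusted p = 0.935). Against empty vector Bst2 had 1.71 with shRNA1 and 1.39 with shRNA2, and Oas1a had -0.87 with shRNA1 and -0.89 with shRNA2, all 4 past the threshold.

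**Figure D3:**
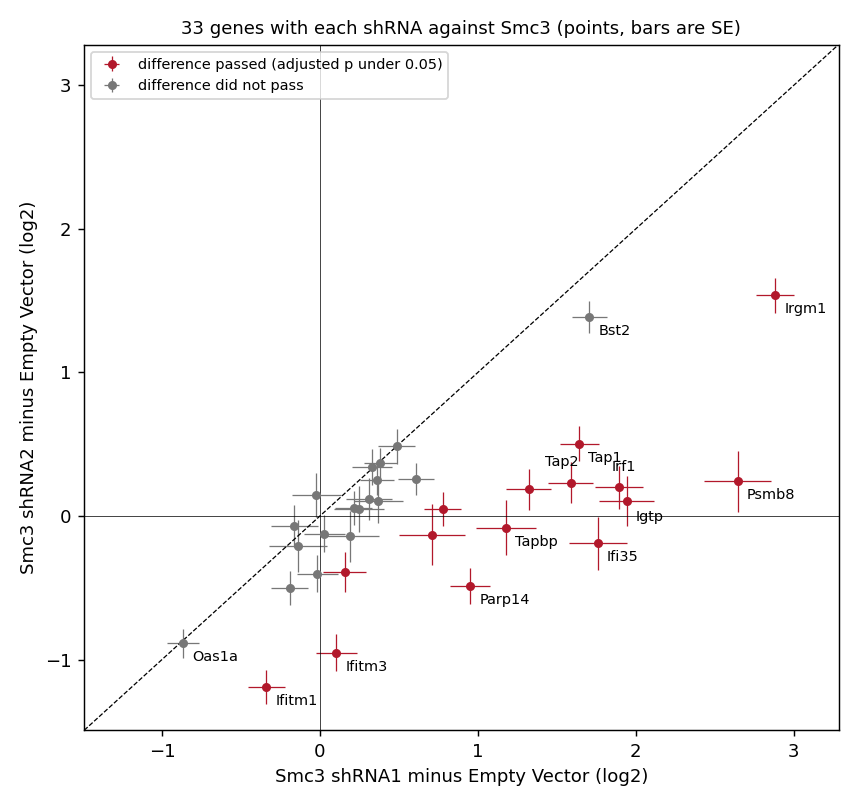
Log2 difference from empty vector of the 33 genes with Smc3 shRNA1 (horizontal axis) and Smc3 shRNA2 (vertical axis), with bars for the SE and a dashed line of equal values; both axes share the 2 empty vector arrays. The 15 genes in red differed between the shRNAs and all lie below the line, while Bst2 and Oas1a lie near it.

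The empty vector arrays were less alike than the replicates of other groups. The SD over all probe sets of the difference between replicates was 0.250 in log2 for empty vector, against 0.190 to 0.203 for the others. Empty vector replicate 2 was higher than replicate 1 for several of the genes that were high with Smc3 shRNA1: by 0.65 for Tapbp, 0.55 for Ifi35, 0.45 for Igtp and 0.35 for Irf1. Over all 45037 probe sets, replicate 2 minus replicate 1 of empty vector correlated with Smc3 shRNA1 minus shRNA2 (r = 0.307) and with Wapal shRNA2 minus shRNA1 (r = 0.403), as a description across probe sets, which are not independent. Set against empty vector replicate 2 alone, Smc3 shRNA1 was higher by 2.78 for Irgm1, 2.56 for Psmb8 and 1.72 for Irf1. For Igtp, Ifi35 and Tapbp the values were 1.72, 1.49 and 0.85. Set against empty vector replicate 1 alone, Smc3 shRNA2 was higher by 1.64 for Irgm1, 0.33 for Psmb8 and 0.38 for Irf1. For Igtp, Ifi35 and Tapbp these were 0.33, 0.09 and 0.24. The part of the split between the empty vector arrays in the results, the differences between shRNAs included, was not tested.

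Summed intensities of other cells' markers were also compared. Those for fibroblasts were 273 to 299.7 with Wapal shRNA1, 322 to 323 with Wapal shRNA2, 377 to 379 with Smc3 shRNA1 and 293 to 299 with Smc3 shRNA2, against 349 to 395 with empty vector. Those for leukocytes and macrophages were 865 to 909.9 with Wapal shRNA1, 736 to 839 with Wapal shRNA2, 836 to 885 with Smc3 shRNA1 and 1041 to 1321 with Smc3 shRNA2, against 1183 to 1233 with empty vector. Those for endothelium were 320.1 to 326 with Wapal shRNA1, 265 to 289.6 with Wapal shRNA2, 389 to 426 with Smc3 shRNA1 and 365 to 393 with Smc3 shRNA2, against 324 to 352 with empty vector. The sums hide single markers that moved. Of 10 fibroblast markers, Dcn, Pdgfra and Pdgfrb rose and Thy1 fell with Smc3 depletion. Pdgfra and Pdgfrb, receptors for platelet-derived growth factor, were also higher with Smc3 shRNA1 than with shRNA2, by 0.67 (adjusted p = 0.0145) and 1.22 (adjusted p = 0.00336). Pdgfrb had intensities of 22.3 and 21.3 with Wapal shRNA1, 39.5 and 41.8 with Wapal shRNA2, 113 and 104 with Smc3 shRNA1, 46.9 and 46.04 with Smc3 shRNA2, against 40.4 and 56.4 with empty vector. Between the same shRNAs Tek, of 5 endothelial markers, was higher with shRNA1 (0.84) and Pecam1 lower (-1.07), and of 10 leukocyte markers Cd68 was higher (0.55) and Laptm5 lower (-0.98). The ESC marker Nanog was higher with Smc3 shRNA1 than with shRNA2. With Wapal depletion Dcn rose, and Thy1, Pdgfrb, Laptm5 and the ESC marker Esrrb fell. Summed ESC markers were 60987 to 62479 with Wapal shRNA1, 67128 to 67884 with Wapal shRNA2, 61790.0 to 62139 with Smc3 shRNA1 and 56599 to 57911 with Smc3 shRNA2, against 62175 to 65166 with empty vector. The part of these markers in the results was not tested.

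With Wapal depletion 3 of the 33 genes rose and 1 fell, or 9.09% and 3.03% of them, where 2.63% of all genes rose and 4.93% fell. The median difference was 0.11 over the 33 genes and 0.01 over all genes. Irgm1 rose by 1.04 ± 0.17 (SE, adjusted p = 0.0171), a 2.05-fold difference that ranked 37 from the top among all genes. Irf1 rose by 0.60 ± 0.12 (SE, adjusted p = 0.0287) and Bst2 by 0.53 ± 0.09 (SE, adjusted p = 0.0191), while Parp14 fell, with a difference of -0.84 ± 0.14 (SE, adjusted p = 0.0167). On single arrays, all 4 Wapal arrays lay outside the empty vector range for each of these genes. All 4 calls were among the 17 genes with a mean log2 of 6 or above, where 3.13% of all such genes rose and 7.92% fell. A second, dimmer probe set of Parp14, 1432548_at, was at 0.09 (adjusted p = 0.674).

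The calls were sensitive to leaving out 1 array, which takes power from the test and can leave a group with a single array. Those of Bst2 and Irf1 held only when empty vector replicate 2 was left out. Without any other single array neither passed. Whichever array was left out, the difference stayed positive, at 0.50 to 0.55 for Bst2 and 0.43 to 0.78 for Irf1. Irgm1 lost its call without empty vector replicate 1 (adjusted p = 0.0847) or Wapal shRNA1 replicate 2 (0.0545), and Parp14 without empty vector replicate 1 (0.0633) or Wapal shRNA2 replicate 2 (0.0625).

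The class I genes did not pass with Wapal depletion, at 0.31 (adjusted p = 0.0997) for H2-D1, 0.25 (adjusted p = 0.197) for H2-K1, 0.03 (adjusted p = 0.925) for B2m and 0.17 (adjusted p = 0.411) for Tap1. The probe set 1425336_x_at of H2-K1 passed, with 0.52 (adjusted p = 0.0411). The immunoproteasome genes were at 0.18 (adjusted p = 0.561) for Psmb8 and 0.11 (adjusted p = 0.65) for Psmb9, and Tapbp was at 0.40 (adjusted p = 0.265). Ifitm1 was below both empty vector arrays on all 4 Wapal arrays without passing, at -0.35 (adjusted p = 0.112). Of the 33 genes, 29 did not pass, and their differences ran from the -0.42 of Irf9 to the 0.40 of Tapbp.

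The Wapal shRNAs also differed in places. Against empty vector, Wapal shRNA1 raised Bst2 and Irgm1 and lowered Irf9 and Parp14, and Wapal shRNA2 raised Irf1 and Irgm1 and lowered Parp14. Over all genes 1.64% rose and 4.39% fell with Wapal shRNA1, and 2.14% rose and 2.67% fell with Wapal shRNA2. Compared directly, Bst2 passed and the other 32 genes did not, where 0.434% of all genes were higher and 1.02% lower with shRNA1. Bst2 was higher with shRNA1 by 0.68 ± 0.10 (SE, adjusted p = 0.0317): its difference from empty vector was 0.87 (adjusted p = 0.00763) with shRNA1 and 0.18 (adjusted p = 0.337) with shRNA2. The call between the shRNAs was lost without any 1 of the 4 Wapal arrays. With a single array left for 1 shRNA, almost no probe set passed in this comparison, so the loss says little about Bst2. Its difference was 0.64 to 0.72 whichever array of the fit was left out. Irf1 had 0.31 (adjusted p = 0.244) with shRNA1 and 0.90 (adjusted p = 0.0166) with shRNA2, and the difference between them did not pass, at -0.59 (adjusted p = 0.0864). In limma 0 genes were lower with shRNA1 than with shRNA2, 7 were lower at an unadjusted p under 0.05, and alternative limma fits called up to 3.

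**Figure D4:**
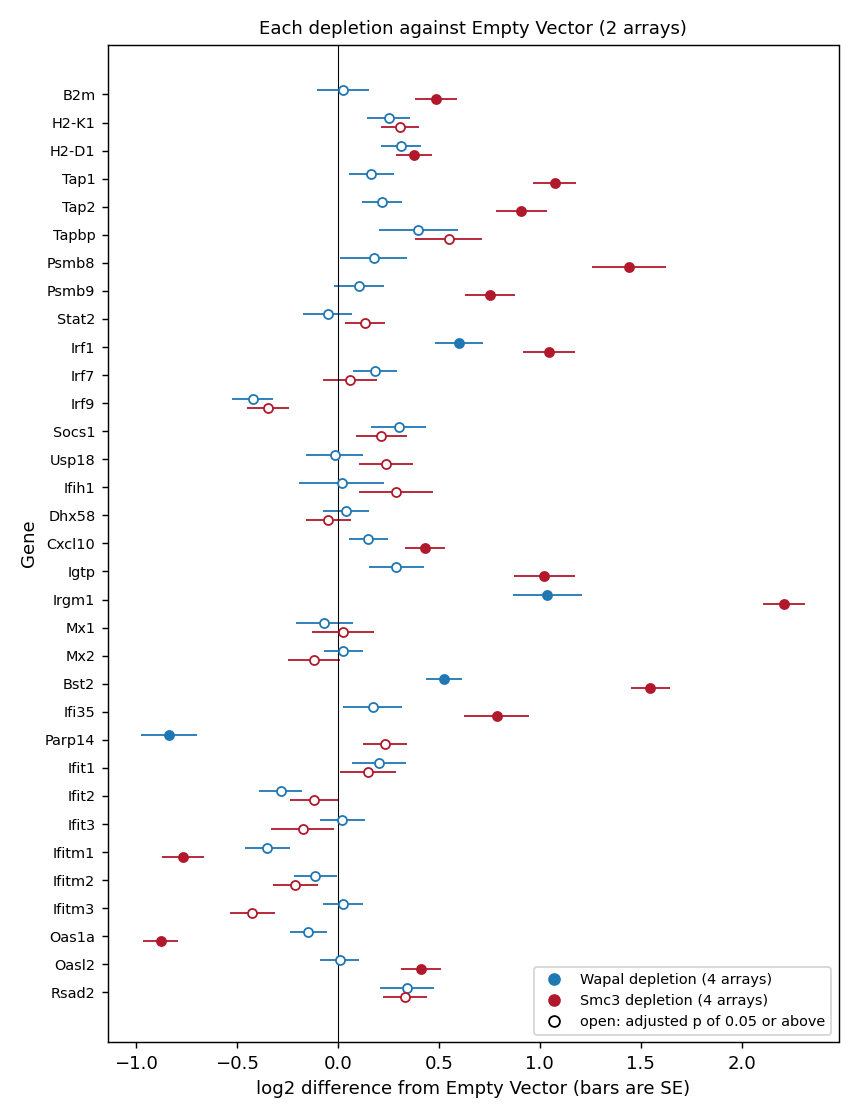
Log2 difference from empty vector of each of the 33 genes with Wapal depletion (blue, 4 arrays) and Smc3 depletion (red, 4 arrays), both against the same 2 empty vector arrays; bars are SE, filled points passed an adjusted p of 0.05 and open points did not. With Smc3 depletion 15 points are filled and with Wapal depletion 4, of which Irgm1, Irf1 and Bst2 are filled in both.

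Wapal and Smc3 depletion were compared directly in a fit of all 10 arrays, in which empty vector cancels from the difference. Wapal depletion was higher than Smc3 depletion for 3 of the 33 genes and lower for 13 (9.09% and 39.4% of them), where over all genes 7.66% were higher and 14.8% lower. The share that was higher lay near that of all genes. Of the 17 genes with a mean log2 of 6 or above, 3 were higher and 9 lower, where 9.47% and 22.8% of all such genes were. Of the 16 dimmer ones 4 were lower, where 5.68% of all dimmer genes were. The median difference was -0.17, against 0.01 over all genes. The 13 lower genes were Psmb8, Irgm1, Parp14, Bst2, Tap1, Igtp, Tap2, Psmb9, Ifi35, B2m, Irf1, Oasl2 and Cxcl10. The largest were Psmb8 at -1.26 ± 0.17 (SE, adjusted p = 0.000644), Irgm1 at -1.17 ± 0.13 (SE, adjusted p = 0.000214), Parp14 at -1.07 ± 0.11 (SE, adjusted p = 0.000169) and Bst2 at -1.02 ± 0.07 (SE, adjusted p = 2.84e-05). Irgm1 and Bst2, which each depletion raised over empty vector, were thus lower with Wapal depletion than with Smc3 depletion. The genes higher with Wapal depletion were Oas1a by 0.73 ± 0.07 (SE, adjusted p = 9.13e-05), Ifitm3 by 0.45 ± 0.08 (SE, adjusted p = 0.004) and Ifitm1 by 0.42 ± 0.08 (SE, adjusted p = 0.00581). Cxcl10 lost its call without replicate 1 of any of the 4 shRNA groups or without Smc3 shRNA1 replicate 2 (adjusted p = 0.0545 to 0.0992).

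The Smc3 side of this comparison averages 2 shRNAs that differed. Among the 13 genes lower with Wapal depletion, the values with Smc3 shRNA2 overlapped those of the Wapal arrays for Psmb8, Psmb9, Igtp, Tap2, Oasl2 and Cxcl10. For Ifi35 and Irf1 both Smc3 shRNA2 arrays lay below all 4 Wapal arrays, while for Bst2, Irgm1, Tap1, B2m and Parp14 both Smc3 shRNAs lay above all 4 Wapal arrays. For Oas1a both Smc3 shRNAs lay below all 4 Wapal arrays, and for Ifitm1 and Ifitm3 only Smc3 shRNA2 did so.

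Other genes of the same pathways, from lists drawn up by role with earlier results of these data known, moved in part. Over all genes 2.63% rose and 4.93% fell with Wapal depletion, 6.08% rose and 3.94% fell with Smc3 depletion, and the median was 0.01 in both. Of 16 further receptor and signalling genes, 2 (12.5%) rose with Wapal depletion, with a median of 0.06 over the list, and 3 (18.8%) with Smc3 depletion, with a median of 0.17. Ifngr1, a chain of the interferon gamma receptor, rose by 0.41 with Wapal depletion and 0.67 with Smc3 depletion. Socs3, an inhibitor of cytokine signalling, rose by 0.47 with Wapal depletion and 0.46 with Smc3 depletion. The Smc3 value averages 0.93 (adjusted p = 0.00472) with Smc3 shRNA1 and -0.01 (adjusted p = 0.978) with shRNA2, and the shRNAs differed by 0.95 (adjusted p = 0.00475). Jak2, the kinase bound to the gamma receptor, was at 0.33 (adjusted p = 0.154) with Wapal depletion and rose by 0.62 with Smc3 depletion, and it was higher with Smc3 shRNA1 than with shRNA2 by 0.44 (adjusted p = 0.0471). Of 14 further antigen presentation genes, 1 (7.14%) rose with Wapal depletion, with a median of 0.12, and 2 (14.3%) with Smc3 depletion, with a median of 0.19. Erap1, which trims peptides in the endoplasmic reticulum, rose by 0.82 with Wapal depletion and 1.48 with Smc3 depletion, by 2.03 with shRNA1 and 0.93 with shRNA2. Ifi30, a lysosomal reductase, rose by 0.72 with Smc3 depletion, by 0.75 with shRNA1 and 0.69 with shRNA2.

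Of 13 further sensing genes, 2 (15.4%) fell with Wapal depletion, with a median of -0.03. With Smc3 depletion 1 (7.69%) rose, near the share over all genes, and 2 (15.4%) fell, with a median of -0.05. Mavs, the adaptor of the RNA sensors, fell in both comparisons, with differences of -0.58 for Wapal and -0.87 for Smc3 depletion. Trim25, a ligase that activates RNA sensing, fell with Wapal depletion (-0.53), and Cgas, a DNA sensor, fell with Smc3 depletion (-0.44). Zbp1, a sensor of Z-form nucleic acid, rose by 0.64 with Smc3 depletion, which averages 1.54 (adjusted p = 0.00045) with shRNA1 and -0.26 (adjusted p = 0.274) with shRNA2, and the shRNAs differed by 1.79 (adjusted p = 0.000467).

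Of 30 further interferon-induced effectors, 2 (6.67%) rose and 3 (10%) fell with Wapal depletion, with a median of 0.16, and 6 (20%) rose and 3 (10%) fell with Smc3 depletion, with a median of 0.12. Ifi47, another immunity-related GTPase, rose by 0.79 with Wapal depletion and 0.89 with Smc3 depletion, and was higher with Smc3 shRNA1 than with shRNA2 by 1.11 (adjusted p = 0.00395). Xaf1, Pml and Tor3a fell in both comparisons. For Xaf1 the Smc3 value averages 0.10 (adjusted p = 0.686) with shRNA1 and -1.93 (adjusted p = 0.000182) with shRNA2. Between the Smc3 shRNAs, 11 of these 30 (36.7%) were higher with shRNA1, where 7.87% of all genes were, among them Xaf1 (2.02), Rtp4 (1.97) and Parp9 (1.68). The guanylate-binding proteins are a further family of interferon-induced GTPases, of which 2 of 6 (33.3%) rose with Wapal depletion, with a median of 0.47, and 4 of 6 (66.7%) with Smc3 depletion, with a median of 1.67. Gbp2 had intensities of 22.6 and 28.5 with Wapal shRNA1, 90.8 and 74.996 with Wapal shRNA2, 643 and 463 with Smc3 shRNA1, 34.9 and 46.5 with Smc3 shRNA2, against 12.1 and 13.05 with empty vector. Its differences were 1.87 for Wapal and 3.56 for Smc3 depletion, with 5.44 for Smc3 shRNA1 and 1.68 for shRNA2.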

How the data were processed

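Total RNA of 10 samples was put on Affymetrix mouse expression arrays, 1 per sample. The deposited values are linear intensities per probe set, which the authors made with RMA, which corrects background, normalizes by quantiles and summarises the probes of a set. The version of RMA and which arrays were normalized together are not given in the sources used here. Quantile normalization hides a shift of most genes in 1 direction, and differences of dim probe sets are compressed. Groups came from the GEO labels. In a supplementary table of the study, replicate 2 of Wapal shRNA1 and replicate 1 of Wapal shRNA2 have each other's names. The GEO labels were kept, under which the replicates of each shRNA have like Wapl values.

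Of 45101 probe sets, 64 control probe sets were left out and the remaining 45037 were fitted, of which 34945 carry 1 symbol, 932 several and 9160 none in the platform annotation. No intensity filter was applied. Log2 values were fitted with limma 3.58.1 in R 4.3.3 (lmFit with 1 mean per group, eBayes, two-sided tests). Each depletion was the mean of its shRNA groups minus Empty Vector, fitted on 6 arrays with 3 residual degrees of freedom, and Wapal was set against Smc3 on 10 arrays with 5. Percentages of all genes use the brightest probe set of each of 18193 genes. The 11 genes with more than 1 such probe set were also read from the others.

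Values on every array are printed for genes that passed in a comparison of depletions or of shRNAs, or had a mean log2 of at least 8. Of the 33 measured genes, all 33 gene IDs had the same symbol in RefSeq. Genes and lists were chosen with earlier results of these data known. The alternatives were an added intensity of 16, quantile normalization over the 10 arrays, leaving out dim probe sets, eBayes with a trend and robust variances, a plain two-group test that pools both shRNAs, any probe set of a gene, other sets of arrays in the fit, a replicate block and leaving out each array. The fitting was tested on simulated data.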

Additional observations from a re-analysis of the deposited data

Results flagged for a closer look

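These results stood out because the fit's own test found a difference between the 2 shRNAs against the same gene. Groups of 2 arrays are too small to look for single arrays far from their group. For Wapal, the shRNA1 value of Bst2 exceeded that of shRNA2 by 0.68 in log2, and both shRNA1 arrays exceeded both shRNA2 arrays.

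For Smc3, 15 of the 33 genes were higher with shRNA1 than with shRNA2, against 7.87% of all genes. In the peptide pathway the log2 differences were 2.40 for Psmb8, 1.35 for Tap2, 1.26 for Tapbp, 1.14 for Tap1 and 1.14 for Psmb9. Irf1, the transcription factor, had 1.69. The GTPases Igtp and Irgm1 had 1.84 and 1.35. Among effectors and sensors the differences were 1.95 for Ifi35, 1.44 for Parp14, 1.06 for Ifitm3, 0.85 for Ifitm1, 0.84 for Ifih1, 0.73 for Oasl2 and 0.55 for Ifit2. In all 15, both shRNA1 arrays were above both shRNA2 arrays on the brightest probe set. The other probe sets of Psmb8, Ifi35 and Parp14 kept this order. Tapbp 1450378_at overlapped between the shRNAs and did not pass, with a difference of 0.35. The other, dimmer probe sets of Tap1 overlapped too, with differences of -0.07 to 0.05. H2-K1, not among the 15, was higher with shRNA1 on 1425336_x_at (0.66) and 1427746_x_at (0.57). Smc3 itself had similar intensities with both shRNAs.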

How the results depend on the processing

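Single-gene results were followed over the 33 genes in the 3 depletion comparisons, and over the called genes alone between shRNAs. They stayed the same 1419 times, lost a call 126 times and gained one 25 times. They moved by more than the replicate spread without a call 27 times and changed sign as a called value 0 times. For a called gene, the same means called in the same direction. For an uncalled gene it means uncalled and within the replicate spread, whatever its sign. Between shRNAs a gained call could not be counted. With Wapal depletion 3 genes rose and 1 fell. The plain two-group test gave 1 higher and 3 lower unadjusted, and 0 and 0 after Benjamini-Hochberg. For the lower count, adding 16 to the intensities, leaving out dim probe sets and fitting all 10 arrays each gave 2, and the trend and robust variances gave 3. Leaving out 1 array gave 0 to 3 higher (0 without Empty Vector replicate 1 or Wapal shRNA1 replicate 2, 3 without Empty Vector replicate 2, and 1 otherwise) and 0 to 2 lower. With Smc3 depletion, against 13 higher and 2 lower, the two-group test gave 6 and 1 unadjusted, and 0 and 0 after Benjamini-Hochberg. Not all of those 6 were among the 13. Leaving out dim probe sets or fitting all 10 arrays gave 4 lower. Leaving out 1 array gave 8 to 11 higher, with 8 without Empty Vector replicate 1, Smc3 shRNA1 replicate 1 or either Smc3 shRNA2 replicate. For Wapal against Smc3 depletion, 3 higher and 13 lower, the two-group test gave 1 and 6 unadjusted, and 1 and 0 after Benjamini-Hochberg. Between the Smc3 shRNAs no alternative moved the 15 higher by over 1.5 times, and leaving out 1 array gave 11 to 15. Between the Wapal shRNAs, the trend and robust variances and the fit of all 10 arrays gave 2 higher and 3 lower, leaving out dim probe sets gave 1 lower, and leaving out 1 array gave 0 to 1 higher and 0 to 2 lower. The cause was not tested in any of these cases.

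Over all 45037 probe sets, 2661 were called for Wapal depletion, 3434 for Smc3 depletion, 7820 between them, 4454 between the Smc3 shRNAs and 498 between the Wapal shRNAs. The two-group test called 7056 and 5485 unadjusted for the 2 depletions, and 3, 0 and 1116 adjusted for the first 3 comparisons. Trend and robust variances called 4567 for Wapal depletion and 2290 between its shRNAs, and the fit of all 10 arrays 4264 and 1515. Between the Wapal shRNAs the added intensity gave 778, leaving out dim probe sets 1041 and the replicate block 328. Leaving out 1 array gave 496 to 2281, 1534 to 4199, 4968 to 6085, 838 to 6128 and 0 to 1738 in the same 5 comparisons.

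The replicate numbers did not pair the samples: deviations of same-numbered arrays correlated between -0.16 and 0.06 over 10 pairs of groups. With the replicate number as a block, 11 genes rose with Smc3 depletion and 2 fell, 3 rose and 1 fell with Wapal depletion, 3 were higher and 13 lower for Wapal against Smc3 depletion, 14 were higher and 0 lower in limma between the Smc3 shRNAs, and 1 was higher and 0 lower between the Wapal shRNAs. H2-D1 and Oasl2 lost their Smc3 call and Ifit2 its call between shRNAs.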
